A study of Paralichthys olivaceus with 6 samples.

Results

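Genes of neutrophils and inflammation were followed in the skin of Japanese flounder (Paralichthys olivaceus), in albino fish and in fish of normal colour. The group has 4 genes of the 22498 in the deposited tables, namely GS_009020 (GROA), GS_010295 (MMP9), GS_005575 (NCF1) and GS_021037 (IL17REL). They were picked by gene ID from the genes that the study called different between albino and normal fish, so the fold change and adjusted p of that comparison chose them. Differences of these 4 genes between the groups are therefore given below as a description. The names are the study's matches to proteins of other species (cattle for GROA and NCF1, mouse for MMP9, human for IL17REL).

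The skin came from the ocular side of 3 normal (PO_con1 to PO_con3, labelled wild type) and 3 albino (PO_alb1 to PO_alb3) fish of 1 full-sib family, all 5 months old and kept in seawater for a week before sampling. Each fish gave 1 mRNA library. Pieces of whole skin were used, so fewer cells of a type and less RNA per cell cannot be told apart. The fish were grouped by their pigmentation alone, and no gene that causes the albinism is named in the labels.

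Neutrophils are the first white cells to enter injured or infected skin. They follow chemokines such as GROA, whose mammalian counterparts attract them through a receptor on the neutrophil surface. MMP9 is an enzyme that cuts collagens and gelatin of the basement membrane. It is stored in neutrophil granules of mammals and is also made by macrophages and skin cells. NCF1 is the cytosolic subunit that organizes the NADPH oxidase of phagocytes, the enzyme behind their burst of reactive oxygen. IL17REL resembles receptors of the IL17 cytokine family, which regulate inflammation at body surfaces, but the gene was named from a putative human protein.

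Between 17905084 and 20025047 reads were counted to genes in each library. The share held by the 10 most abundant genes ranged from 25.1% in PO_con3 to 37.3% in PO_alb3, and these libraries were also the least alike of all pairs (Pearson's r of log2(RPKM + 1) across genes 0.957, where genes are not independent replicates). Counts were therefore scaled by TMM, a method of edgeR that corrects for such differences in composition, with factors of 0.791 in PO_alb3 to 1.27 in PO_con3. Levels below are these normalized counts, with an SD taken over 3 fish, unless RPKM (reads scaled by gene length and by the counted reads of the library) or counted reads are named. The summed normalized count of PMEL, TYR, TYRP1 and MLANA, genes of pigment cells, was 640.0 to 979 in normal and 16.3 to 38.9 in albino fish. The study called these genes different between the same groups, so they are no independent check of the pigmentation labels. TYR was at 0 in 1 albino library.

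In the ligand gene GROA the level was higher in albino skin. Its normalized count was 31.9 in PO_con1, 23.8 in PO_con2 and 44.4 in PO_con3, against 93.8 in PO_alb1, 68.1 in PO_alb2 and 100.6 in PO_alb3. All albino fish lay above all normal fish, and the lowest albino value was 1.53 times the highest normal value. The spread within a group was 1.87-fold among normal and 1.48-fold among albino fish. The normal mean was 33.3 ± 10.4 (SD, n = 3) and the albino mean 87.5 ± 17.2 (SD, n = 3). On the log2 scale the difference was 1.37 (SE 0.28). The counted reads were few, 109 over the normal and 242 over the albino libraries, and GROA is a short gene with a coding length of 291 bases. The pooled ratio of albino to normal was 2.52, with a 95% Clopper-Pearson interval of 2.00 to 3.19 that covers counting error only.

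For MMP9, the protease, the level was lower in albino skin. Its normalized count was 692 in PO_con1, 835 in PO_con2 and 1101 in PO_con3, and albino fish had 254 (PO_alb1), 395 (PO_alb2) and 531 (PO_alb3). The groups did not overlap, but the gap was narrow, since the lowest normal fish was 1.30 times the highest albino fish. The spread within a group was wider than that gap, 1.59-fold among normal and 2.09-fold among albino fish. The normal mean was 876 ± 207 (SD, n = 3) and the albino mean 393 ± 139 (SD, n = 3). On the log2 scale the difference of albino from normal fish was -1.16 (SE 0.29). MMP9 had the most reads of the 4 genes (2859 in normal and 1072 in albino libraries), so counting error was small. The pooled ratio of normal to albino was 2.35 (95% counting interval 2.19 to 2.52).

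The oxidase subunit gene NCF1 was measured at the lowest level. The normal fish PO_con1 to PO_con3 gave 34, 27 and 46 counted reads, while PO_alb1 to PO_alb3 gave 4, 9 and 12. After scaling, the normalized counts were 36.2, 26.8 and 37.1 in the normal and 3.99, 8.63 and 15.7 in the albino fish. The groups did not overlap, and the lowest normal fish was 1.71 times the highest albino fish. The spread within a group was 1.39-fold among normal fish and, wider than that gap, 3.93-fold among albino fish. The normal mean was 33.3 ± 5.72 (SD, n = 3) and the albino mean 9.44 ± 5.89 (SD, n = 3). The log2 difference was -1.86 (SE 0.44). With 107 against 25 reads, the pooled ratio of normal to albino was 3.77 with a counting interval of 2.42 to 6.08.

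IL17REL, the receptor-like gene, was also lower in albino skin. Its normalized count was 71.2 in PO_con1, 34.7 in PO_con2 and 69.4 in PO_con3, and albino fish had 14.0 (PO_alb1), 22.1 (PO_alb2) and 13.1 (PO_alb3). PO_con2 stood well below the other normal fish, yet was 1.57 times the highest albino fish. The spread within a group was wider than that gap, 2.05-fold among normal and 1.69-fold among albino fish. The normal mean was 58.4 ± 20.6 (SD, n = 3) and the albino mean 16.4 ± 4.95 (SD, n = 3). The log2 difference was -1.81 (SE 0.37). The pooled ratio of normal to albino, from 188 against 47 reads, was 3.52 with a counting interval of 2.55 to 4.96.

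**Figure D1:**
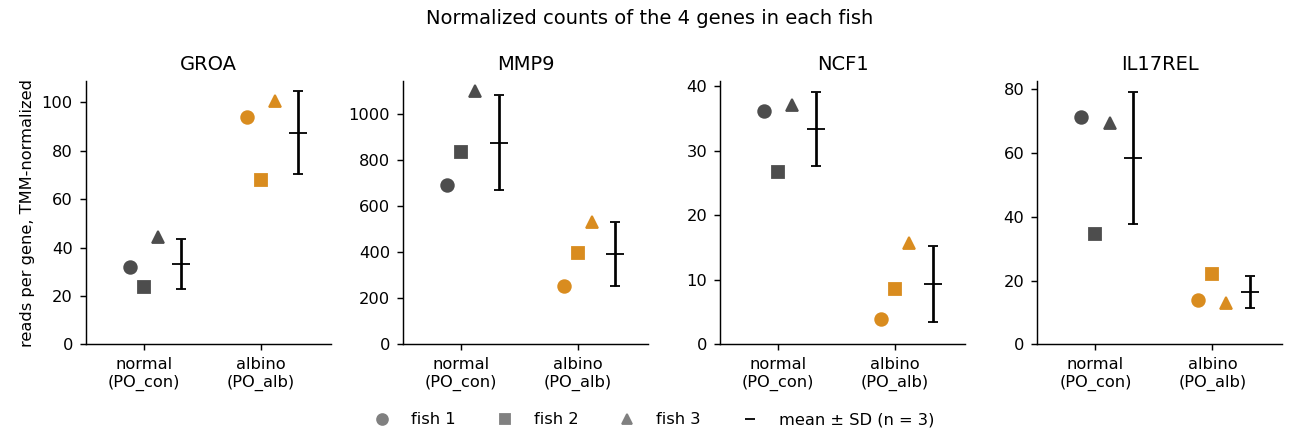
Normalized count (reads per gene after TMM scaling, linear axis from 0) of GROA, MMP9, NCF1 and IL17REL in each of the 3 normal and 3 albino fish, 1 symbol for each fish, with the mean ± SD of each group at its right. The groups do not overlap in any panel, and the gap is narrowest for MMP9 (692 in PO_con1 against 531 in PO_alb3).

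All 4 genes had enough reads for edgeR's quasi-likelihood test, which covered 16260 genes. The groups did not overlap in 4 of the 4 genes, as in 13.2% of all genes tested, with 3 lower in albino fish (7.46% of genes) and 1 higher (5.73%). None of the 4 passed an adjusted p of 0.05 (Benjamini-Hochberg over all genes tested), a threshold passed by 1.04% of genes. Their adjusted p lay between 0.094 for IL17REL and 0.18 for MMP9, and their ranks by p between 211 and 332, below the 169 genes that passed. At an unadjusted p of 0.05 the count was 4 of 4, beside 7.86% of all genes. With DESeq2 on the same genes it was 4 of 4 at an adjusted p of 0.05, beside 2.24% of all genes. Nothing follows from these counts about the difference itself, because the same contrast chose the genes. The calls of these genes depended on the tool.

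RPKM, which takes gene length into account, allows levels to be compared between the genes, within a limit. The lengths are coding lengths only, 291 bases for GROA and 2022 for MMP9, and the order of the genes rests on them. In normal fish the order was MMP9 at 25.3 ± 10.7 (SD, n = 3), GROA at 6.67 ± 3.22 (SD, n = 3), IL17REL at 2.95 ± 1.25 (SD, n = 3) and NCF1 at 1.59 ± 0.464 (SD, n = 3). This order held within each normal library. The SD ranges of IL17REL and NCF1 overlapped in normal fish, as did those of GROA and IL17REL, while MMP9 stood apart. In albino fish GROA came first at 15.3 ± 2.53 (SD, n = 3), followed by MMP9 at 9.68 ± 2.31 (SD, n = 3), whose SD range did not reach that of GROA. GROA was above MMP9 in every albino library, with 18.0 against 7.02, 13.1 against 10.9 and 14.6 against 11.1 RPKM in PO_alb1 to PO_alb3. IL17REL at 0.759 ± 0.308 (SD, n = 3) and NCF1 at 0.383 ± 0.186 (SD, n = 3) were low and their SD ranges overlapped, and in PO_alb3 NCF1 (0.557) was above IL17REL (0.490). For comparison, the median of the mean RPKM over all genes was 3.39.

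A ratio of 2 genes within a library does not depend on how libraries are scaled. The RPKM ratio of GROA to MMP9 was 0.320, 0.198 and 0.280 in PO_con1 to PO_con3. In PO_alb1 to PO_alb3 it was 2.57, 1.20 and 1.32. By RPKM, the chemokine gene was thus below the protease gene in every normal fish and above it in every albino fish. The ratio of GROA to NCF1 was 3.61 to 4.89 in normal and 26.3 to 96.2 in albino fish, and that of GROA to IL17REL 1.74 to 2.66 and 11.97 to 29.9. These separations follow from the choice of 1 gene that was higher and 3 that were lower. Among the 3 lower genes, the ratio of MMP9 to NCF1 was 11.3 to 18.4 in normal and 19.9 to 37.4 in albino fish, without overlap. The closest values, 19.9 in PO_alb3 and 18.4 in PO_con2, rest on only 12 and 27 reads of NCF1. How many other pairs of genes have ratios without overlap was not counted. The ratio of MMP9 to IL17REL overlapped (5.42 to 13.4 and 9.99 to 22.7), as did that of IL17REL to NCF1 (1.37 to 2.08 and 0.880 to 3.70). These ratios were not tested, since the contrast that chose the genes is the same.

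**Figure D2:**
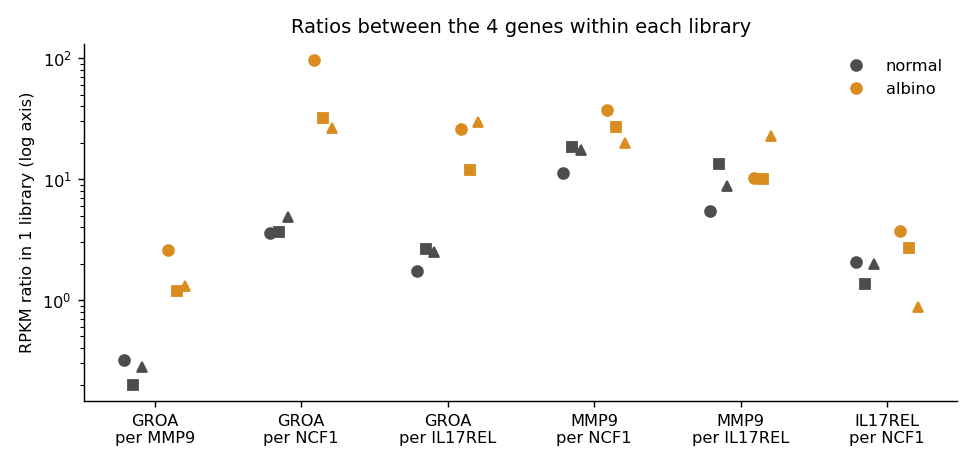
RPKM of 1 gene divided by that of another in the same library (log axis), for the 6 pairs, with dark symbols for normal and orange symbols for albino fish (circle, square and triangle for fish 1, 2 and 3). GROA per MMP9 lies at 0.198 to 0.320 in normal and at 1.20 to 2.57 in albino fish, and the ratios of IL17REL with MMP9 or NCF1 overlap.

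Whether single fish carried the differences was examined by leaving out each library in turn. GROA kept a log2 fold change between 1.17 (without PO_con2) and 1.66 (without PO_con3). That of MMP9 lay between -1.44 (without PO_alb3) and -0.92 (without PO_alb1). The range was widest for NCF1, from -2.38 without PO_alb3 to -1.48 without PO_alb1. IL17REL ranged from -2.10 without PO_alb2 to -1.65 without PO_con3. The fold of NCF1 thus moved by at most 1.43 times, and that of the other 3 genes by at most 1.22 times. The directions did not turn, but since the groups of these 4 genes do not overlap and the genes were chosen for this contrast, that was fixed by the choice. Without both PO_con3 and PO_alb3, the pair that was least alike, the log2 fold changes were 1.54 for GROA, -1.24 for MMP9, -2.29 for NCF1 and -1.54 for IL17REL. By edgeR's adjusted p, 0 of the 4 genes passed in each of these fits, which had fewer fish, while 4 of 4 had an unadjusted p under 0.05 in each, beside 5.64% to 11.9% of all genes. Of all genes, 0.921%, 0.419% and 0.653% passed the adjusted p without PO_con1, PO_con2 and PO_con3, and 0.617%, 0.576% and 0.519% without PO_alb1, PO_alb2 and PO_alb3. Without both PO_con3 and PO_alb3 0.416% passed.

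**Figure D3:**
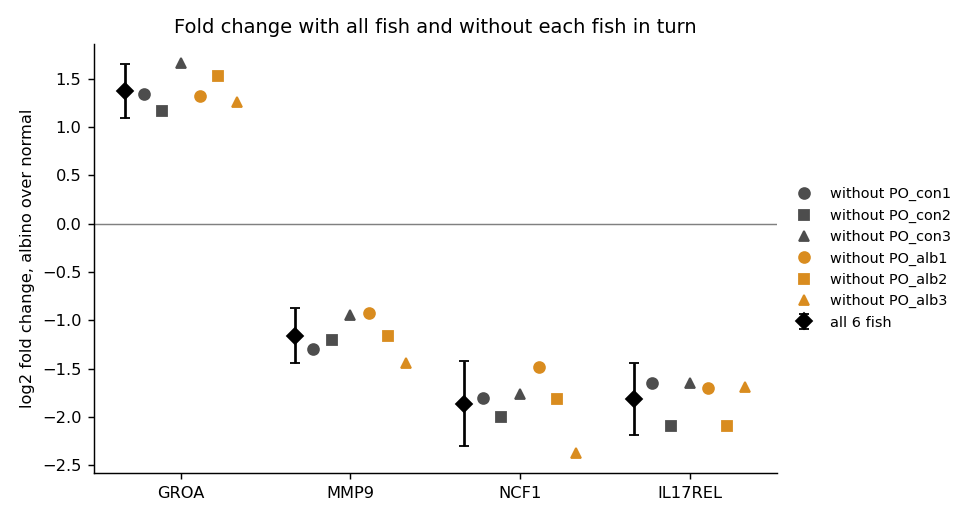
Log2 fold change of albino over normal fish for each of the 4 genes, with all 6 fish (black diamond, ± SE of the edgeR fit) and without each fish in turn (dark for a normal and orange for an albino fish left out). Every point of GROA lies at 1.17 or above and every point of MMP9, NCF1 and IL17REL at -0.92 or below.

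By edgeR's fit, the spread within groups was larger than for most genes tested. The genes compared were not matched for level. The biological coefficient of variation fitted by edgeR was 22.6% for GROA, 25.5% for MMP9, 26.2% for NCF1 and 28.4% for IL17REL, beside a median of 18.9% over all genes tested. It was lower than this in 69.2%, 79.5%, 81.5% and 86.8% of the genes tested, in the same order. For MMP9 the fish of a group differed by far more than counting gives, with an observed coefficient of variation of 23.7% in normal and 35.3% in albino fish where counting alone gives 3.24% and 5.29%. In NCF1 the normal fish differed by about as much as counting gives (17.2% against 16.7%), while the albino fish, with 4 to 12 reads, differed by more (62.4% against 34.6%). GROA had 31.1% against 16.6% in normal and 19.6% against 11.1% in albino fish. For IL17REL the values were 35.2% against 12.6% and 30.2% against 25.3%. On the log2 scale, the group means accounted for 84.0% of the variance between fish in GROA, 82.4% in IL17REL, 77.4% in NCF1 and 72.8% in MMP9, beside a median of 15.4% over all genes tested, a value that the choice of genes had raised.

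Among the normal fish, PO_con3 lay above and PO_con2 below the mean of normal fish in each of the 4 genes, by log2 CPM with TMM scaling and also with scaling by library totals. The deviations of PO_con3 were 0.43 for GROA, 0.36 for MMP9, 0.16 for NCF1 and 0.31 for IL17REL with TMM. They were 0.70, 0.63, 0.43 and 0.58 with library totals, so the size depended on the scaling. PO_con3 was the highest normal fish for all 4 genes by library totals, and for 3 of them with TMM, where PO_con1 was just above it in IL17REL (71.2 against 69.4). For NCF1 with TMM, PO_con3 was only just above PO_con1 (37.1 against 36.2). The TMM factor was 1.27 in PO_con3, against 0.879 in PO_con1 and 1.03 in PO_con2. Library totals therefore place any gene higher in PO_con3, relative to the other normal fish, than TMM does. How many of all genes were highest in PO_con3 was not counted. PO_con2 was the lowest normal fish for GROA, NCF1 and IL17REL, but for MMP9 PO_con1 was the lowest with both scalings. PO_con3 held 37.1% to 44.4% of the summed normalized level of the normal fish, where an even share is 33.3%. GROA, which was higher in albino skin, was thus highest in the same normal fish as MMP9 and, by a narrow margin with TMM, NCF1, which were lower in albino skin.

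No albino fish lay on 1 side of its group mean for all 4 genes. PO_alb3 was the highest albino fish for MMP9, NCF1 and, with TMM, GROA, but the lowest for IL17REL. By library totals PO_alb1 was the highest for GROA, and PO_alb3 was barely above PO_alb2 for MMP9 (420 against 414). In counted reads of MMP9, PO_alb2 was above PO_alb3 (412 against 406). PO_alb1 was the lowest for MMP9 and NCF1, with log2 deviations of -0.57 and -0.80 from the albino mean. PO_alb3 held 55.4% of the summed normalized level of NCF1 in albino fish, the most uneven share of any fish in the 4 genes with TMM.

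**Figure D4:**
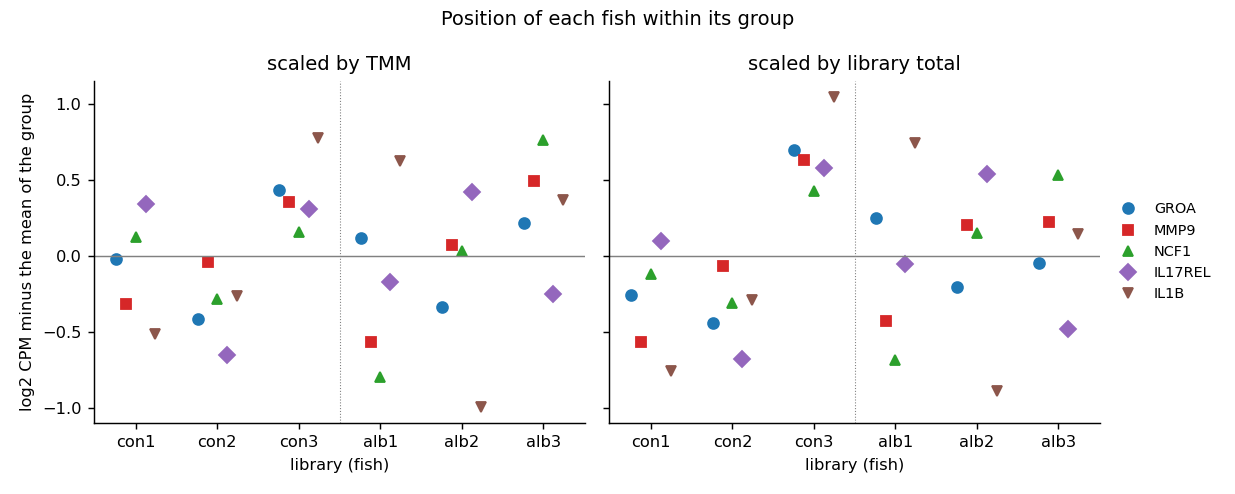
Log2 CPM of each fish minus the mean of its group, for the 4 genes and IL1B, with TMM scaling (left) and scaling by library totals (right). With both scalings all 5 genes lie above the line at 0 in PO_con3 and below it in PO_con2, whereas the symbols of each albino fish fall on both sides.

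Covariation was tested on the deviations from the group means, which do not hold the group difference that chose the genes. The 6 pairs of genes were compared over the 6 libraries by Pearson's r and Spearman's rho, with exact two-sided permutation within groups and adjustment over the 6 pairs. The smallest p that the 36 permutations allow is 0.028. The highest correlation was that of MMP9 and NCF1, with r = 0.83 (exact permutation p = 0.14, adjusted p = 0.83) and rho = 0.83 (exact permutation p = 0.14, adjusted p = 0.75). Without PO_alb1 and PO_alb3, the 2 fish farthest from the median of MMP9, r was 0.19, so the relation did not hold without them. With library totals r was 0.78, and it became 0.94 without the 2 fish farthest from the median there, PO_con1 and PO_con3. Since different fish were left out, the values 0.19 and 0.94 do not separate the scaling from the choice of fish. With single libraries left out, r of MMP9 and NCF1 lay between 0.53 (without PO_alb1) and 0.99 (without PO_con1), and that of GROA and NCF1 between 0.02 (without PO_alb3) and 0.86 (without PO_alb1). The other 5 pairs had r between 0.03 (MMP9 and IL17REL) and 0.30 (GROA and MMP9), each with an exact permutation p of 0.53 or more and an adjusted p of 0.90 or more. Their rho lay between -0.09 and 0.60, with an exact permutation p of at least 0.25. A single pair alone could not go below an adjusted p of 0.17, so that no pair passed cannot decide whether any single pair covaries. Only several pairs at the smallest p together could have passed. With TMM the smallest exact permutation p of any pair was 0.14.

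The genes most like each of the 4 were looked for among 197 other named genes of the study's table that were tested, by Pearson's r of log2 CPM over the 6 libraries. These are descriptions, since the named genes were all chosen for the same contrast. For GROA they were COL1A2, annotated as a fragment of a collagen chain (r = 0.99), GRN, a secreted growth factor precursor that acts in inflammation (0.99), and CRP, a pentraxin of the acute phase (0.98). MMP9 was closest to AGMO, which cleaves ether lipids (0.98), to NCF1 (0.96) and to SLC6A13, a transporter of GABA (0.96). The genes closest to NCF1 were AGMO (0.98), the transcription factor PAX7 (0.97) and C1ORF216 (0.97). IL17REL was closest to the motor protein gene MYO5A (0.96), the keratin gene KRT18 (0.95) and HHIP, which binds hedgehog proteins (0.95). Between 27 and 37 of all 16259 other genes tested reached an r of 0.95 with each of the 4.

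The deviations within groups gave a different set of neighbours. For GROA they were GS_020430 (0.99), which the study's tables name both Y8948 and DES, COL1A2 (0.98) and GCH1 GS_008748, an enzyme of pteridine synthesis (0.95). MMP9 had CNTN4, a neural adhesion protein, SLC24A3, an ion exchanger, and RDH11, a retinol dehydrogenase, all at 0.98. NCF1 had TYR, the enzyme of melanin synthesis (0.96), which had 0, 1 and 3 reads in the albino libraries, AGMO (0.93) and the adhesion protein DSCAM (0.91). IL17REL had no neighbour this close, with MAP6, a microtubule protein, at 0.84, the adenylate cyclase gene ADCY5 at 0.79 and SOSTDC1, an antagonist of bone morphogenetic proteins, at 0.75. COL1A2 for GROA and AGMO for NCF1 were named by both measures. In the study's table GS_020430, GCH1 GS_008748, CNTN4, SLC24A3, RDH11 and MAP6 also had, on average, only a few reads in albino fish. Their r therefore rests in part on few reads, as for TYR. Of the 16259 other genes tested, 41 to 77 (0.252% to 0.474%) had an r of 0.95 or more with each of the 4. Among the 197 named genes the counts were 3 for GROA, 4 for MMP9, 1 for NCF1 and 0 for IL17REL. Whether these r exceed what 3 fish a group give by chance was not tested.

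Other genes of inflammation were taken from the same table of the study, as 8 genes of cytokine, lipid mediator and acute-phase function. They were chosen on these libraries too, so their counts are no independent evidence of direction. By edgeR's test with adjustment over all genes, 4 of the 8 were lower in albino skin (0.91% of all genes), 3 were higher (0.129%) and 1 did not pass. Their median log2 fold change was -0.56, beside 0.01 over all genes tested. IL1B (GS_002625), an early cytokine of inflammation, had a normalized count of 60.6, 72.3 and 151 in the 3 normal fish, in order of their numbers, and of 16.0, 3.84 and 13.1 in the albino fish. Among normal fish it was highest in PO_con3, as were GROA, MMP9 and, by a narrow margin, NCF1. Among albino fish it was highest in PO_alb1, where MMP9 and NCF1 were lowest. IL1B was called lower (log2 difference -3.13, SE 0.53, adjusted p = 0.043). The call was kept only when PO_con1 was left out (adjusted p = 0.085 to 0.16 without any other library).

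ALOX15B, a lipoxygenase that makes lipid mediators, was the only gene of the list whose call did not depend on any single library. Normal fish had a mean normalized count of 549 ± 13.0 (SD, n = 3) and albino fish one of 45.1 ± 10.8 (SD, n = 3). The log2 difference was -3.59 (SE 0.19, adjusted p = 0.00022), and leaving out any single library kept the call. PIK3R6, a regulatory subunit of the phosphoinositide kinase of white cells, was lower in albino fish, at 3.15 ± 0.625 (SD, n = 3) against 27.4 ± 11.9 (SD, n = 3), and the call was lost without any library except PO_con1. The kininogen gene KNG fell by 2.15 on the log2 scale (adjusted p = 0.0097), and its call was lost without PO_con2, PO_alb1 or PO_alb3 (adjusted p = 0.053 to 0.063). PTGER3, a receptor of prostaglandin E, was higher in albino fish, at 37.3 ± 9.41 (SD, n = 3) against 7.23 ± 2.39 (SD, n = 3), and its call was lost without any 1 library (adjusted p = 0.064 to 0.10). CRP and GRN rose with log2 fold changes of 1.14 and 1.32 (adjusted p = 0.043 and 0.048), and of all single libraries only PO_con3 could be left out with both calls kept. The pentraxin APCS had a log2 fold change of 1.04 and did not pass (adjusted p = 0.067).

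Genes of lysosomes and of lymphocytes came from the same table, so their counts and medians are no independent evidence of direction either. Of the 4 genes of lysozymes and lysosomes that are reported here, which are not the whole list, 2 were higher (LYG and CTSL), beside 0.129% of all genes. The other 2 did not pass (LYSC and IFI30), and the median log2 fold change over these 4 was 1.58. The call of LYG was lost without PO_con2 and without PO_con3, and that of CTSL without any 1 library except PO_con3. IFI30 was called lower without PO_alb1 (log2 difference -2.78, adjusted p = 0.022). Of 7 listed genes of lymphocytes and antigen receptors, 6 had a row in the table and 5 were tested. Of these, 3 were lower (MUCM, FCAMR and PRDM1), beside 0.91% of all genes, and 2 did not pass, with a median of -1.64. All 3 calls were lost without PO_con2, without PO_alb2 and without PO_alb3. With scaling by library totals in place of TMM, the edgeR calls kept in these 3 lists were those of ALOX15B and KNG, while DESeq2 called every gene tested, with no change of direction.

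**Figure D5:**
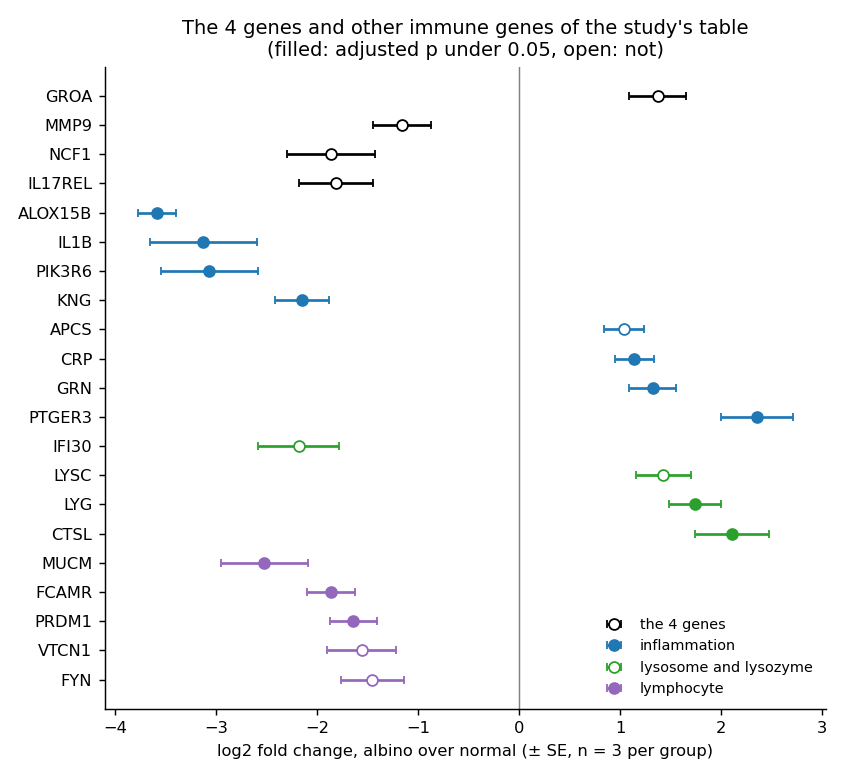
Log2 fold change of albino over normal fish with its SE (n = 3 per group) for the 4 genes and for other genes of inflammation, of lysosomes and of lymphocytes in the study's table. Filled symbols passed an adjusted p of 0.05 and open symbols did not. GROA lies on the side of CRP and GRN, and MMP9, NCF1 and IL17REL lie on the side of IL1B and PIK3R6.

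Markers of other skin cells were taken from the same table of genes that the study called different between these groups. That they differed was therefore fixed by the choice, and their levels are given as a description. The summed normalized count of the 4 muscle genes DES, TNNT2, MUSTN1 and METTL21C was 12380 to 24940 in normal and 33910 to 48100 in albino fish, with 1 of the 4 called higher. That of 3 keratin genes was 23690 to 40290 in normal and 8356 to 13760 in albino fish, with 2 of the 3 called lower. By the study's read counts, most of the muscle sum came from DES and most of the keratin sum from KRT13 GS_014679. Neither of these passed edgeR's test (adjusted p = 0.33 and 0.076), so the calls concern genes that add little to the sums. PO_con3, high in the 4 genes among normal fish, had the lowest muscle sum and the highest keratin sum. Among albino fish, PO_alb3 was highest for GROA, MMP9 and NCF1 with TMM and lowest for IL17REL. It had the highest muscle sum (48100) and the lowest keratin sum (8356), the reverse of PO_con3. Of the lymphocyte markers with a row in the table, MUCM and KACB summed to 102 to 134 in normal and 9.59 to 34.9 in albino fish, and KACB was at 0 in 2 albino libraries. None of the muscle and keratin genes was at 0 in any library. Their part in the levels of GROA, MMP9, NCF1 and IL17REL was not tested. Other defining genes of neutrophils were not analysed here.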

How the data were processed

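The mRNA of 6 skin samples was sequenced as paired reads, 1 library for each fish. The authors aligned reads to the flounder genome (build not given in the sources used here) with TopHat2 2.0.9 on a Bowtie2 2.0.6 index, used Cufflinks 2.1.1 to assemble transcripts, known and new, and HTSeq for counting. They deposited raw counts and RPKM, which are those counts divided by gene length and by the counted reads of the library. The lengths implied were multiples of 3 for 20120 of 20121 known genes (within 0.01 bases), so they are coding lengths. The strand setting is not given in the sources used here.

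The main test used edgeR 4.0.16 in R 4.3.3 (filterByExpr, TMM, quasi-likelihood test, Benjamini-Hochberg over 16260 genes, threshold 0.05). SE is the log2 fold change divided by the root of F. DESeq2 1.42.0, limma 3.58.1 on log2(RPKM + 1) or log2(RPKM + 0.1), a block for the replicate number, other scalings and filters, and omission of libraries were alternatives. Log2 CPM had a prior count of 2. Figures were drawn with matplotlib 3.10.9.

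The named genes are the 4 members, fixed lists from the study's table and, by rule, the 3 most alike named genes for each measure. The members and lists were chosen with earlier results of these data known. The p-values of the group tests rest on the spread between these fish, fitted with information from other genes. The fish were of 1 full-sib family, so spread beyond it is not covered. The permutation p-values concern the correlations only. The reference table paired no gene ID with a symbol, and 1 listed ID (HVCM) had no row of exactly that name. A further gene of the lysosome list is not reported here, and was left out without regard to its values.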

Additional observations from a re-analysis of the deposited data

How the results depend on the processing

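No alternative turned the direction of GROA, MMP9, NCF1 or IL17REL. These genes were chosen for this contrast and their groups do not overlap, so that was largely fixed by the choice. With edgeR, 148 genes were called lower and 21 higher. DESeq2 called 274 and 90 and all 4 genes described here, where edgeR called none of them. Scaling by library totals called 99 lower and 7 higher and moved the median log2 fold change of all genes from 0.01 to -0.13. Log2 fold changes of the 4 genes were then 1.19 (GROA), -1.38 (MMP9), -2.04 (NCF1) and -1.95 (IL17REL). limma called 89 lower and 7 higher on log2(RPKM + 1), where NCF1 was at -0.90 and IL17REL at -1.13, and 6 higher on log2(RPKM + 0.1). Without PO_con3 and PO_alb3, an alternative chosen after seeing the data, 55 were lower and 13 higher. With 1 library left out, 67 to 138 were lower and 2 to 14 higher. The r of deviations then ranged from -0.76 to 0.81 for GROA and IL17REL, -0.093 to 0.73 for GROA and MMP9, -0.22 to 0.38 for MMP9 and IL17REL, -0.088 to 0.85 for NCF1 and IL17REL, 0.53 to 0.99 for MMP9 and NCF1, and 0.02 to 0.86 for GROA and NCF1. The cause of these changes was not tested. The same-numbered libraries did not all deviate together (r of -0.17, 0.18 and -0.44 across genes). PO_con2 and PO_alb2 were closest to each other, but PO_con1 was closest to PO_alb3 and PO_con3 to PO_alb1. These values cannot settle whether same-numbered libraries shared a step of handling. The number was not treated as a pairing in the main test. With the replicate block 53 genes were lower and 4 higher. Depth limits NCF1 most, with 25 reads over the albino libraries.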
